A study of Homo sapiens with 8 samples.

Results

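The machinery that carries a cell from G1 into S phase was followed at the RNA level: the D-type cyclins CCND1, CCND2 and CCND3, the kinases CDK4 and CDK6, the inhibitors CDKN1A, CDKN1B and CDKN2D, and RB1. Members were all probe sets (groups of short probes that read 1 transcript region) listed with exactly 1 gene symbol for these genes. There were 22 such probe sets, of 41091 with exactly 1 symbol, for 9 of the 10 genes named. CDKN2C was not analysed here.

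The study delivered in vitro transcribed RNA by electroporation into Kasumi-1, a line of human myeloid leukemia cells with the AML-ETO fusion, and read total RNA 6 h later on Affymetrix U133 Plus arrays. Every group, the control included, was electroporated. The RNA encoded GFP (control, 3 arrays), wild-type NR4A1 (NR4A1 WT, 3 arrays) or NR4A1 with a mutated DNA binding domain (NR4A1 CEAA, 2 arrays), so that the response to the nuclear receptor could be set against that to a form mutated in its DNA binding domain. All 8 arrays come from 1 cell line, and nothing in the sources used here says that the arrays of a group came from separate cultures, so p-values measure the spread between these arrays, which may be technical. The small number of arrays limits the precision of every value below.

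D-type cyclins bind CDK4 and CDK6, and the active kinases phosphorylate the retinoblastoma protein RB1, which releases E2F factors to transcribe genes of DNA synthesis. INK4 proteins such as CDKN2D block the kinases by direct binding, whereas CDKN1A and CDKN1B act on cyclin-CDK complexes more broadly. In myeloid leukemia, CDK6 and the D-type cyclins are known for driving proliferation of blasts.

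Values are log2 intensities, and a difference of 1 is a 2-fold change in signal. The array medians ran from 4.75 to 4.80, and for a probe set below them no signal over background is shown. All 6 myeloid markers measured lay above the medians in the 8 arrays, MPO at 14.34 to 14.43, KIT at 13.45 to 13.78, RUNX1T1 at 11.07 to 11.61, CEBPA at 7.47 to 8.11, CD34 at 7.44 to 7.88 and SPI1 at 5.72 to 6.89. SPI1, a myeloid transcription factor, fell by 0.97 after NR4A1 WT (adjusted p = 0.000109) and by 0.55 after NR4A1 CEAA (adjusted p = 0.00548), and its part in the results below was not tested. CD3D, CD3E, CD3G, MS4A1, CD79A, HBB, ALAS2, COL1A2 and KRT18, markers of other lineages, read 3.75 to 5.69. Some of these lay above the array medians, so a level above the medians does not by itself show signal over background. COL1A1 read 7.27 to 7.61 and EPCAM, an epithelial marker, 11.43 to 11.86. The 3 probe sets of NR4A1 itself read 5.06 to 6.66 and passed the test in neither comparison with GFP, so the arrays do not check the introduced RNA.

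Each probe set was tested with limma in 1 fit of the 3 groups, with Benjamini-Hochberg adjustment over all 41091, and called where the adjusted p was below 0.05. After NR4A1 WT, 0 member probe sets were higher than in GFP and 5 were lower, of CCND2, CDK4 and CDK6. Over all probe sets tested, 6.54% were called higher and 7.07% lower. At an unadjusted p below 0.05 the member counts were 1 and 9 (12.6% and 13% of all probe sets), and Rank Product, the test named in the study's methods, called 0 and 0 at q below 0.05 (1.74% and 1.64% of all). For single probe sets the Rank Product q is given below only where it was under 0.05, and most limma calls did not reach that. Without GFP replicate 1, 2 or 3 limma called 3, 3 and 2 member probe sets lower. The median member difference was -0.22, beside 0.00 for all probe sets, and -0.15 at the brightest probe set of each gene.

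After NR4A1 CEAA, 8 member probe sets were higher than in GFP and 3 were lower, against 7.12% and 8.64% of all probe sets. The 8 belonged to CCND2, CDK6 and RB1, and the 3 to CCND2, CDK4 and CDKN2D. Rank Product called 2 higher and 2 lower (0.625% and 1.5% of all probe sets). The median member difference was 0.16, beside -0.01 for all, but 7 of the 22 probe sets are of CDK6. At the brightest probe set of each of the 9 genes the median turned to -0.17, with 2 called higher and 3 lower. Over the brightest probe sets of all 19775 genes the median was -0.03, with 5.95% called higher and 10.5% lower. Without NR4A1 CEAA replicate 1 the limma counts were 2 and 1, and without replicate 2 they were 4 and 1. Leaving out either of these arrays leaves that group with 1 array, which is then assumed to vary like the other groups.

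The direct comparison of NR4A1 WT with NR4A1 CEAA tests whether the responses differed. In it 3 member probe sets were higher after NR4A1 WT and 12 lower, against 13.7% and 12.7% of all probe sets, with medians of -0.30 for members and 0.02 for all (-0.25 at the brightest probe set of each gene). Rank Product called 1 higher and 2 lower (1.75% and 0.757% of all). Both comparisons with GFP use the same 3 control arrays, so their values are given side by side. In bulk RNA, less transcript per cell and a smaller share of cells in the phase that expresses it cannot be told apart.

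**Figure D1:**
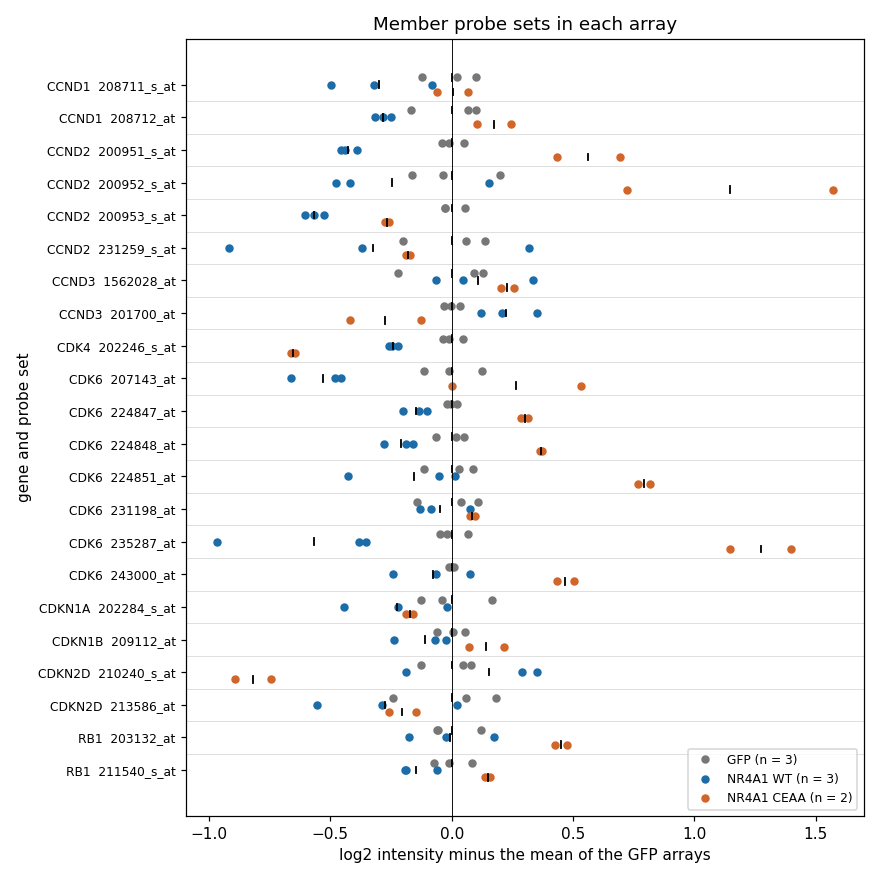
Log2 intensity of the 22 member probe sets in each of the 8 arrays, as the difference from the mean of the GFP arrays (horizontal axis), with 1 line per probe set (vertical axis). Points are arrays, colored by group, and short black lines are group means. CDK4 lies below GFP in the arrays of both NR4A1 groups, and 5 of the 7 CDK6 probe sets have both NR4A1 CEAA arrays clearly to the right of every GFP array.

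CCND2 changed most among the cyclins, and its probe sets disagreed in direction after NR4A1 CEAA. The brightest, 200953_s_at, read 9.55, 9.63 and 9.55 with GFP, 8.97, 9.01 and 9.05 with NR4A1 WT, and 9.30 and 9.32 with NR4A1 CEAA. The 3 groups did not overlap, with GFP on top and NR4A1 WT at the bottom. It fell by 0.57 after NR4A1 WT (SE 0.06, 1.48-fold, limma adjusted p = 0.000331) and by 0.27 after NR4A1 CEAA (SE 0.06, adjusted p = 0.0250), and the levels with NR4A1 WT were also below those with NR4A1 CEAA (difference -0.30, SE 0.06, adjusted p = 0.00864). The fall after NR4A1 CEAA lost its call without any 1 of the 3 GFP arrays (adjusted p = 0.0578, 0.0769 and 0.0604 without replicates 1, 2 and 3) and without either NR4A1 CEAA array (0.137 and 0.118). The direct difference lost its call without either NR4A1 CEAA array too (0.0534 and 0.0604).

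For CCND2 200951_s_at the arrays read 6.47, 6.54 and 6.45 with GFP, 6.04, 6.03 and 6.09 with NR4A1 WT, and 6.92 and 7.18 with NR4A1 CEAA. Again no groups overlapped, but here NR4A1 CEAA stood above GFP. The signal fell by 0.43 after NR4A1 WT (SE 0.08, adjusted p = 0.00641) and rose by 0.56 after NR4A1 CEAA (SE 0.09, adjusted p = 0.00390). Both calls held in each of the 8 fits that left out 1 array, as did the direct difference of -0.99 (SE 0.09, adjusted p = 9.48e-05). Another probe set, 200952_s_at, read 3.95 to 4.31 with GFP, 3.64 to 4.27 with NR4A1 WT, and 5.68 and 4.84 with NR4A1 CEAA, where alone it passed the array medians. The measured value rose by 1.15 after NR4A1 CEAA (SE 0.26, adjusted p = 0.0203, Rank Product q = 0.0139), but not without GFP replicate 2 (0.0555), GFP replicate 3 (0.0654) or NR4A1 CEAA replicate 1 (0.148). Its direct difference between NR4A1 WT and NR4A1 CEAA was -1.39 (SE 0.26, adjusted p = 0.00451). With no signal over background shown in the GFP and NR4A1 WT arrays, these sizes do not fix the fold in RNA. The NR4A1 CEAA values too lay within the range of the markers of other lineages. The fourth CCND2 probe set, 231259_s_at, ranged from 3.93 to 5.17 over the arrays and passed in no comparison, except that without NR4A1 WT replicate 3 it was called lower after NR4A1 WT than in GFP (0.0445). CCND2 was 1 of 181 genes called both ways after NR4A1 CEAA, among 1088 genes with at least 2 called probe sets (16.6%).

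CCND1 was dim, and both of its probe sets lay below the median in each of the 8 arrays. At 208712_at the GFP arrays read 3.48, 3.72 and 3.75, the NR4A1 WT arrays 3.33, 3.40 and 3.37, and the NR4A1 CEAA arrays 3.90 and 3.76. NR4A1 WT lay lowest and did not overlap with the others. Its level was below that of NR4A1 CEAA (difference -0.46, SE 0.09, adjusted p = 0.00670, but 0.0692 without NR4A1 CEAA replicate 1), whereas neither comparison with GFP passed (-0.28, adjusted p = 0.0583, and 0.17, adjusted p = 0.262). The former was called without GFP replicate 1 (adjusted p = 0.0207) and after quantile normalization again (0.0432). The other probe set, 208711_s_at, read 4.54 to 4.76 with GFP, 4.16 to 4.58 with NR4A1 WT, and 4.73 and 4.60 with NR4A1 CEAA, and passed in no comparison (adjusted p from 0.111 to 0.990). Without NR4A1 WT replicate 1 it was called lower after NR4A1 WT than in GFP (0.0312) and than with NR4A1 CEAA (0.0236).

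CCND3, another D-type cyclin, was higher with NR4A1 WT than with NR4A1 CEAA. At 201700_at the arrays read 7.71, 7.73 and 7.77 with GFP, 7.86, 8.09 and 7.94 with NR4A1 WT, and 7.32 and 7.61 with NR4A1 CEAA. Levels were in the order NR4A1 WT, GFP, NR4A1 CEAA with no overlap, yet neither neighbor differed by the test (0.22, adjusted p = 0.164, and -0.27, adjusted p = 0.114), although the second was called with an intensity trend (0.0379). The direct difference was 0.50 (SE 0.10, adjusted p = 0.00708, and 0.0681 without NR4A1 CEAA replicate 1). The second CCND3 probe set, 1562028_at, was dim (3.93 to 4.49) and passed in no comparison.

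Over the 19775 genes, each at its brightest probe set, the patterns most like that of CCND2 over the 8 arrays were those of LSM14B, CASP2 and ECE2 (Pearson r = 0.992 each). For CCND1 they were GGA2 (0.985), CRCP (0.966) and GARIN5B (0.961), and for CCND3 TBC1D10A (0.984), TMSB10 (0.982) and KLK8 (0.980). These are descriptions over 8 arrays that share 3 groups, and the CCND1 probe set lay below the array median in all 8.

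CDK4, the kinase partner of the D-type cyclins, fell in both NR4A1 groups. Its probe set, 202246_s_at, read 11.92, 11.89 and 11.97 with GFP, 11.67, 11.71 and 11.68 with NR4A1 WT, and 11.26 and 11.28 with NR4A1 CEAA. The groups formed 3 separate steps, and the spread within each was small (SD 0.04, 0.02 and 0.01). It fell by 0.24 after NR4A1 WT (SE 0.06, 1.18-fold, adjusted p = 0.0211) and by 0.65 after NR4A1 CEAA (SE 0.06, 1.57-fold, adjusted p = 0.000630, Rank Product q = 0.0312). CDK4 was thus 0.41 higher with NR4A1 WT than with NR4A1 CEAA (SE 0.06, adjusted p = 0.00143). The smaller fall lost its call without GFP replicate 1 (0.0666), GFP replicate 3 (0.0848), NR4A1 WT replicate 1 (0.0511) or NR4A1 WT replicate 3 (0.0562), and the larger held in all 8 such fits.

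CDK6, the second kinase, had 7 probe sets. Those called after NR4A1 CEAA moved in the opposite direction to the 1 probe set of CDK4. Among genes with at least 2 called probe sets, 16.6% were called both ways after NR4A1 CEAA and 1.64% after NR4A1 WT. Of the 7 CDK6 probe sets, 5 rose after NR4A1 CEAA, 2 fell after NR4A1 WT, and 6 were lower with NR4A1 WT than with NR4A1 CEAA. The brightest, 224847_at, read 12.79, 12.83 and 12.81 with GFP, 12.68, 12.71 and 12.61 with NR4A1 WT, and 13.13 and 13.10 with NR4A1 CEAA. No groups overlapped. It rose by 0.30 after NR4A1 CEAA (SE 0.06, adjusted p = 0.0147), while the difference after NR4A1 WT was -0.15 (adjusted p = 0.140). The rise was not called without GFP replicate 1 (0.0512) or either NR4A1 CEAA array (0.105 and 0.0764).

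The widest range was at CDK6 235287_at, which read 5.90, 6.02 and 5.93 with GFP, 5.60, 5.57 and 4.98 with NR4A1 WT, and 7.35 and 7.10 with NR4A1 CEAA. Both NR4A1 CEAA arrays stood well above the rest, and NR4A1 WT lay below GFP throughout. The NR4A1 WT arrays read within the range of the markers of other lineages, so sizes against NR4A1 WT do not fix the fold in RNA. No array read above 7.61, the highest value of COL1A1, so the folds given here are of measured signal. The rise after NR4A1 CEAA was 1.27 (SE 0.17, 2.42-fold, adjusted p = 0.00263, Rank Product q = 0.00750) and was called in all 8 fits that left out 1 array. With NR4A1 WT the signal was 3.58-fold below that with NR4A1 CEAA (difference -1.84, SE 0.17, adjusted p = 0.000152, Rank Product q = 0.00426). It fell by 0.57 after NR4A1 WT (SE 0.16, adjusted p = 0.0452), a call that ended without any 1 of the GFP arrays (0.0985, 0.130 and 0.107 without replicates 1, 2 and 3) or without either NR4A1 CEAA array (0.0655 each). It also ended in a fit of the 2 groups alone (0.0655), after centering each array (0.0503), after quantile normalization again (0.0547) and over every probe set of the array (0.0523).

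Levels in the same order were seen at CDK6 224848_at and, less clearly, 224851_at. The former read 11.15, 11.26 and 11.23 with GFP, 11.02, 11.05 and 10.93 with NR4A1 WT, and 11.58 in both NR4A1 CEAA arrays. The latter read 11.49, 11.55 and 11.35 with GFP, 11.48, 11.41 and 11.03 with NR4A1 WT, and 12.28 and 12.23 with NR4A1 CEAA. At 224851_at the GFP and NR4A1 WT arrays overlapped. After NR4A1 CEAA, 224848_at rose by 0.37 (SE 0.07, adjusted p = 0.00934) and 224851_at by 0.79 (SE 0.13, adjusted p = 0.00535). The first was not called without either NR4A1 CEAA array (0.0723 and 0.0649) nor the second without NR4A1 CEAA replicate 1 (0.0538).

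CDK6 243000_at rose by 0.47 (adjusted p = 0.0114) from 7.72 to 7.75 in the GFP arrays to 8.17 and 8.24 with NR4A1 CEAA, and was not called without either NR4A1 CEAA array (0.0653 and 0.0892). At 207143_at the GFP arrays read 6.95, 7.05 and 7.19, the NR4A1 WT arrays 6.61, 6.40 and 6.59, and the NR4A1 CEAA arrays 7.07 and 7.60. Only NR4A1 WT lay apart there. It fell by 0.53 (SE 0.13, adjusted p = 0.0318), a call that ended without any 1 of the 3 GFP arrays (0.0546, 0.0851 and 0.108) or the 3 NR4A1 WT arrays (0.0585, 0.0953 and 0.0622) and with array weights (0.0614), while the difference after NR4A1 CEAA was 0.27 (adjusted p = 0.287). The seventh CDK6 probe set, 231198_at, stayed between 5.41 and 5.66 and passed in no comparison. Between NR4A1 WT and NR4A1 CEAA the 6 called CDK6 differences ran from -0.45 to -1.84, and all 6 calls held in the 8 fits that left out 1 array.

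**Figure D2:**
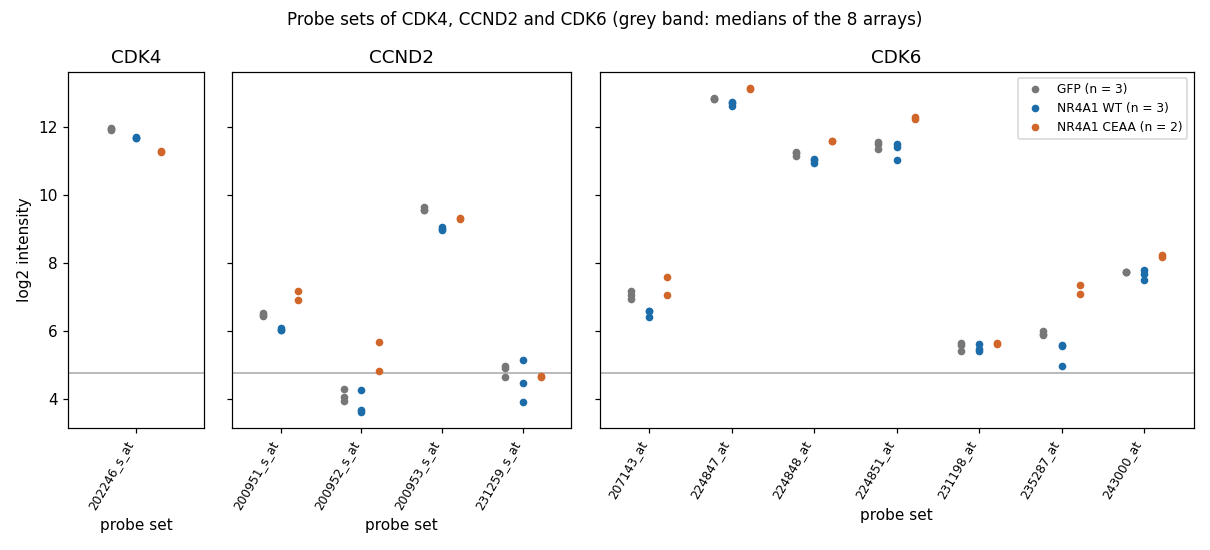
Log2 intensity (vertical axis) of each probe set (horizontal axis) of CDK4, CCND2 and CDK6 in the 8 arrays. Points are arrays in the columns GFP, NR4A1 WT and NR4A1 CEAA, and the grey band marks the medians of the 8 arrays. CDK4 steps down from GFP to NR4A1 CEAA, from 11.9 to 11.3, while 5 of the 7 CDK6 probe sets have both NR4A1 CEAA arrays above all others.

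The stretches upstream of 3 members that changed after NR4A1 CEAA are shown for context, each the 250 bases before the gene's outermost annotated start, from RefSeq on GRCh38.p14. CDK4 is shown because its window holds 3 copies of the E-box CACGTG, the motif bound by MYC and its partner, and CDK6 and CDKN2D because theirs hold none. Since the windows were chosen by their matches, the contrast between them tests nothing. Windows of CDKN2C, not shown, also hold the E-box, 1 at 220 and 1 at 69 bases upstream of a start. Windows lie on the minus strand at chr12:57752311-57752560 (CDK4), chr7:92836574-92836823 (CDK6) and chr19:10568980-10569229 (CDKN2D). Capitals mark the E-box, and bases run 5′ to 3′.

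CDK4: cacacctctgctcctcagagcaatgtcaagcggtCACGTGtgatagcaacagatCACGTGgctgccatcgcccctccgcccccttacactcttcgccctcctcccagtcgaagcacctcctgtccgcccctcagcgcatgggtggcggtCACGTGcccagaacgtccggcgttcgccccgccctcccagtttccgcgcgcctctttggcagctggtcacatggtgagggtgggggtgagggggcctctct
CDK6: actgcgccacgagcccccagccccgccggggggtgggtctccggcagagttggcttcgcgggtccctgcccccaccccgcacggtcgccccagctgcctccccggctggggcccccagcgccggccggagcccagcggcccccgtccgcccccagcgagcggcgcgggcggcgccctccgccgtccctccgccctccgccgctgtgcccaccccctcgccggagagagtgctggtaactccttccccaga
CDKN2D: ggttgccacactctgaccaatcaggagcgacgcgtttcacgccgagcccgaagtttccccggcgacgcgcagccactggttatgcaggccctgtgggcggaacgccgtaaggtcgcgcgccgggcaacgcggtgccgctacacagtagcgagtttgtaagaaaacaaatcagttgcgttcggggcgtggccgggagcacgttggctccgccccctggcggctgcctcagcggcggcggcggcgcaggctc

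Both strands were searched for the E-box (its own reverse complement), for AAGGTCA, the core of the element bound by NR4A receptors, and for CCGGAAG, an ETS core. The CDK4 E-boxes begin 216, 196 and 101 bases upstream of the start. Of 35116 windows of this length, 6.34% held an E-box, 28 (0.0797%) held 3 or more, 3.44% held AAGGTCA and 8.52% CCGGAAG. None of the 3 windows shown held either of the last motifs. These matches are letters in a window and no measurement of binding. MYC RNA itself fell by 1.33 after NR4A1 WT (adjusted p = 2.86e-06) and rose by 0.57 after NR4A1 CEAA (adjusted p = 0.00104), while CDK4 fell in both. The part of MYC in these values was not tested.

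CDKN2D, the INK4 inhibitor p19, fell after NR4A1 CEAA at 1 of its 2 probe sets. At 210240_s_at the arrays read 5.43, 5.26 and 5.46 with GFP, 5.67, 5.20 and 5.73 with NR4A1 WT, and 4.64 and 4.49 with NR4A1 CEAA. Only NR4A1 CEAA was apart, and those arrays dropped below the array medians. The measured signal fell by 0.82 (SE 0.15, adjusted p = 0.00939, Rank Product q = 0.00677) but was not called without NR4A1 CEAA replicate 1 (0.0544) or replicate 2 (0.0811). It was 0.97 higher with NR4A1 WT than with NR4A1 CEAA (SE 0.15, adjusted p = 0.00195), a call kept in all 8 fits. No signal over background is shown with NR4A1 CEAA. With GFP and NR4A1 WT the values lay close to those of HBB, a marker of another lineage (5.30 to 5.69). These sizes are therefore differences of measured values and do not fix the fold in RNA. The other probe set, 213586_at, ranged from 4.22 to 4.96 near the array medians and passed in no comparison.

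The inhibitors CDKN1A (p21) and CDKN1B (p27) passed in none of the 3 comparisons of the fit used throughout. CDKN1A, a well-known p53 target, read 6.86, 6.56 and 6.65 with GFP, 6.24, 6.67 and 6.47 with NR4A1 WT, and 6.53 and 6.50 with NR4A1 CEAA, with overlap between GFP and NR4A1 WT. Its differences were -0.23 (95% interval -0.49 to 0.04, adjusted p = 0.268) after NR4A1 WT and -0.17 (-0.47 to 0.12, adjusted p = 0.434) after NR4A1 CEAA. CDKN1B read 9.29, 9.24 and 9.18 with GFP, 9.21, 9.00 and 9.17 with NR4A1 WT, and 9.45 and 9.31 with NR4A1 CEAA. Its NR4A1 CEAA arrays were above the rest. The differences from GFP were -0.11 (-0.29 to 0.07, adjusted p = 0.441) and 0.14 (-0.06 to 0.34, adjusted p = 0.327), and between NR4A1 WT and NR4A1 CEAA -0.25 (-0.45 to -0.05, adjusted p = 0.0647). That last difference was called without NR4A1 WT replicate 1 (0.0498), with an intensity trend (0.00831), with the filter on dim probe sets (0.0302), after quantile normalization again (0.0495) and with 1 probe set per gene (0.0490).

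RB1, the substrate of the kinases, was higher after NR4A1 CEAA. At 203132_at the arrays read 10.61, 10.42 and 10.43 with GFP, 10.66, 10.31 and 10.46 with NR4A1 WT, and 10.96 and 10.91 with NR4A1 CEAA. Both NR4A1 CEAA arrays lay above the others, among which GFP and NR4A1 WT overlapped. The rise was 0.45 (SE 0.11, adjusted p = 0.0248), and was not called without GFP replicate 2 (0.0722), GFP replicate 3 (0.0775), or either NR4A1 CEAA array (0.147 and 0.109). NR4A1 WT gave -0.01 (adjusted p = 0.974). NR4A1 WT lay below NR4A1 CEAA by the direct test (-0.46, adjusted p = 0.0136, and 0.0913 and 0.0643 without NR4A1 CEAA replicates 1 and 2). The second probe set, 211540_s_at, differed between these groups by -0.29 (adjusted p = 0.0193, and 0.0883 and 0.106 without those replicates), and did not pass against GFP (-0.15 and 0.15, adjusted p = 0.215 and 0.237).

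**Figure D3:**
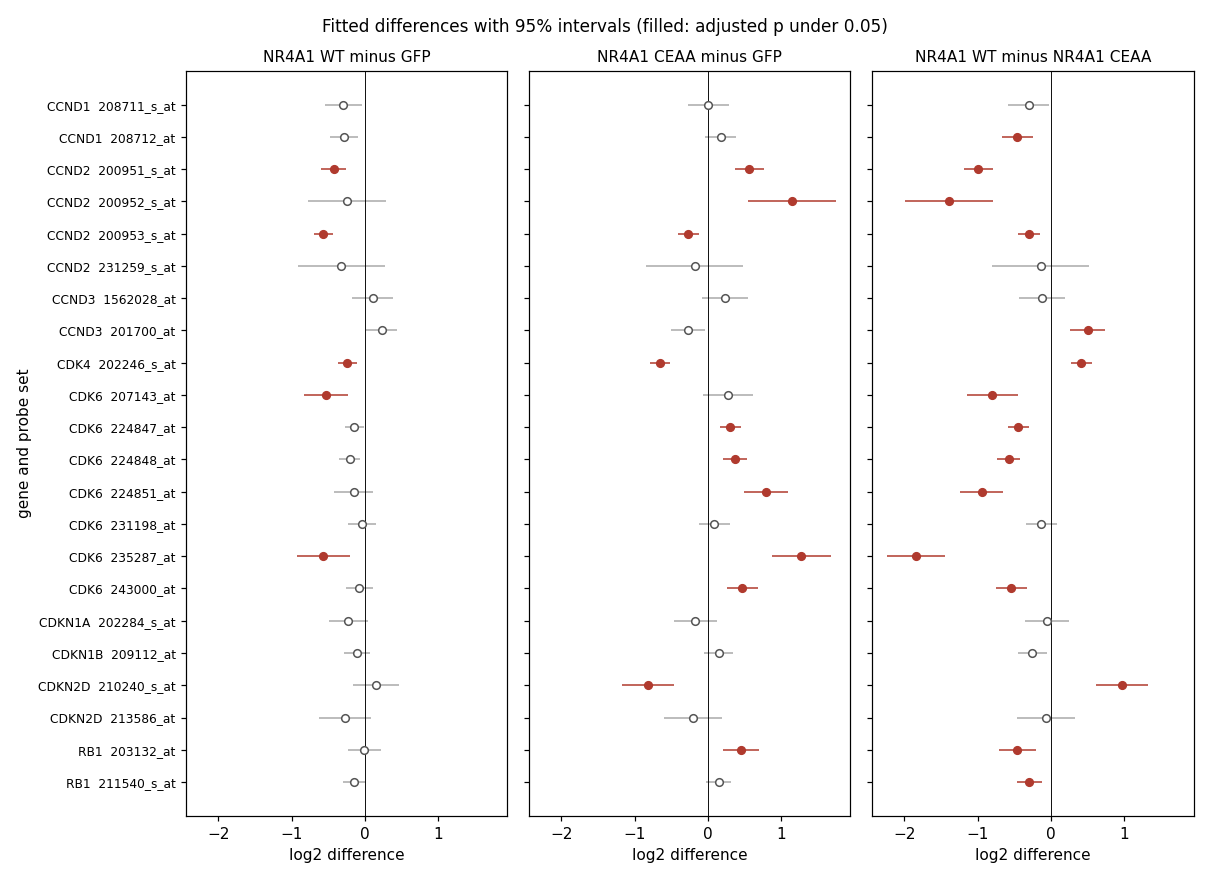
Fitted log2 difference (horizontal axis) of each member probe set (vertical axis) in the 3 comparisons, with 95% intervals as bars and filled points where the limma adjusted p was below 0.05. The widest called difference is that of CDK6 235287_at between NR4A1 WT and NR4A1 CEAA, at -1.84.

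Probe sets were also counted where every array of a group lay above or below every array of the other. After NR4A1 WT, 1 probe set had its arrays all above GFP and 8 all below, against 15% and 15.3% of all probe sets. After NR4A1 CEAA the counts were 12 and 5, against 23.2% and 25.5%, and between NR4A1 WT and NR4A1 CEAA 3 and 15, against 26.9% and 23.3%.

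The other genes of the G1 to S transition were followed by 1 probe set each, the brightest, and at that level 8.18% of all 19775 genes were called higher and 8.76% lower after NR4A1 WT, 5.95% and 10.5% after NR4A1 CEAA, and 16.5% and 12.2% between NR4A1 WT and NR4A1 CEAA. Of 32 genes of the rest of the G1/S machinery, 5 rose and 3 fell after NR4A1 WT. CCNH, the cyclin of the CDK-activating kinase, rose by 0.95 (adjusted p = 2.39e-05), the repressor E2F7 by 0.74 (adjusted p = 0.000136) and cyclin E2 (CCNE2) by 0.46 (adjusted p = 0.00832), while E2F5 fell by 0.74 (adjusted p = 0.000713). No other probe set of E2F7, CCNE2 or E2F5 was called. The list's median was -0.01, beside 0.00 for all genes.

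After NR4A1 CEAA 2 rose and 5 fell, with a median of -0.01 beside -0.03. CDC37, the cochaperone that brings CDK4 to HSP90, fell by 1.09 (adjusted p = 0.000219), and RBL1 (p107) rose by 0.66 (adjusted p = 0.00268), and both held in all fits that left out 1 array. No other probe set of RBL1 was called. RBL2 (p130) rose by 0.47 (adjusted p = 0.0165), but not without GFP replicate 3 (0.0536) or either NR4A1 CEAA array (0.0748 and 0.121). CKS1B fell by 0.37 (adjusted p = 0.00704), but not without NR4A1 CEAA replicate 1 (0.0706). Of the list, 1 was called higher without GFP replicate 3 or either NR4A1 CEAA array and 4 without NR4A1 WT replicate 1. The number lower was 2 without GFP replicate 1 or 3, 1 without NR4A1 CEAA replicate 1 and 3 without replicate 2. Between NR4A1 WT and NR4A1 CEAA, 9 genes were higher and 6 lower, with CCNH 1.05 higher (adjusted p = 2.46e-05), CDC37 1.00 higher (adjusted p = 5.30e-05), MNAT1, a partner of CCNH, 0.69 higher and E2F5 at -0.94.

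E2F target genes of DNA synthesis, the transcripts that an active CDK4/6 pathway is known to switch on, were measured for 22 of 23 genes. After NR4A1 WT 5 rose and 1 fell, with a median of 0.06. CDC6, which loads the replicative helicase, rose by 0.52 (adjusted p = 0.00149) and ORC1 by 0.34 (adjusted p = 0.00457). MCM5 rose by 0.26 (adjusted p = 0.0128, and 0.0548 and 0.0523 without GFP replicates 1 and 2) and POLA2 by 0.27 (adjusted p = 0.0419, and 0.0511 to 0.138 without any 1 of the GFP and NR4A1 WT arrays). No other probe set of POLA2 was called. Without any 1 of the GFP or NR4A1 WT arrays 2 or 3 genes were called higher, and in all fits that left out 1 array 0 lower.

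After NR4A1 CEAA 0 of the 22 E2F targets rose and 7 fell, and at an unadjusted p below 0.05 0 and 10, where 12.3% and 18.2% of all genes were higher and lower. Rank Product called 0 and 0. The median was -0.12, beside -0.03 for all genes. MCM5, a subunit of the replicative helicase, fell by 0.44 (adjusted p = 0.00258) and MYBL2, an E2F-controlled transcription factor, by 0.41 (adjusted p = 0.00410). GINS2 fell by 0.36 (adjusted p = 0.00679) and MCM3 by 0.34 (adjusted p = 0.00843), both not called without NR4A1 CEAA replicate 1 (0.0656 and 0.0814). Without GFP replicate 3, 4 genes were called lower, and without NR4A1 CEAA replicate 1, 2. No other probe set of GINS2 was called after NR4A1 CEAA. Between NR4A1 WT and NR4A1 CEAA 11 were higher and 2 lower (median 0.20, beside 0.03 for all genes), led by CDC6 (0.83), MCM5 (0.71), CDC45 (0.53) and ORC1 (0.52). There were 7 higher without NR4A1 CEAA replicate 1, and 0 or 1 lower without any 1 array.

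**Figure D4:**
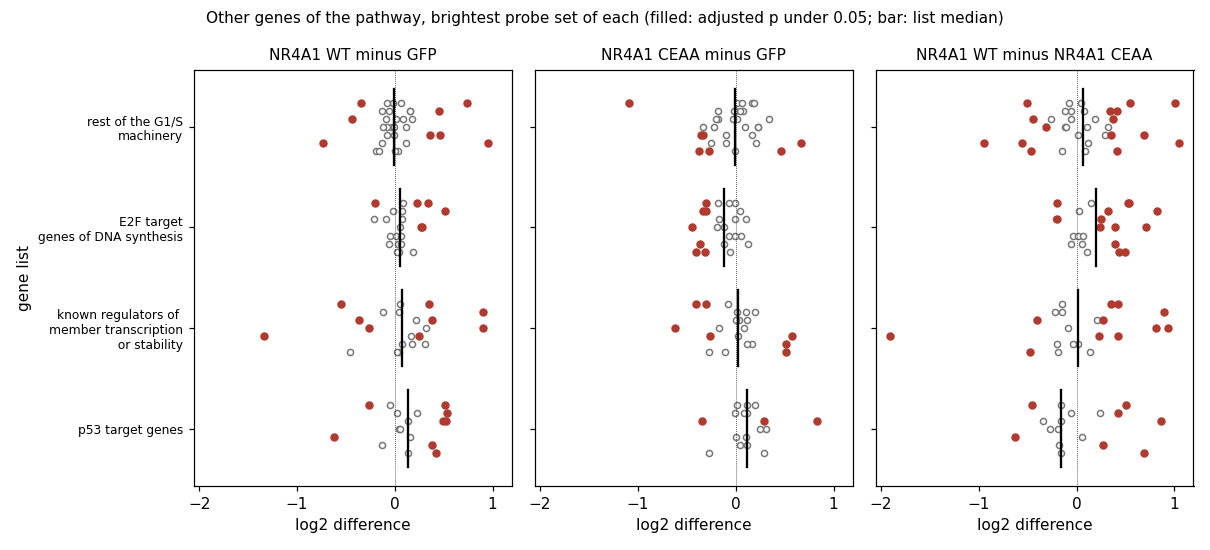
Log2 difference (horizontal axis) of each listed gene at its brightest probe set, by gene list (vertical axis), in the 3 comparisons. Filled points have a limma adjusted p below 0.05 and vertical bars are list medians. In the middle panel every filled E2F target lies left of 0, and in the left panel MYC is the point farthest left, at -1.33.

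Among genes known to regulate the members, 21 of 22 were measured. After NR4A1 WT 5 rose and 4 fell, with a median of 0.08. MYC, which is known to activate CDK4 and CCND2, fell by 1.33 (adjusted p = 2.86e-06), STAT5A and the FOXO factor FOXO1 rose by 0.90 each (adjusted p = 6.67e-05 and 3.25e-05), and CEBPA fell by 0.55 (adjusted p = 0.000910). These 4 calls held in all 8 fits that left out 1 array. FOXO3 moved against FOXO1 and fell by 0.37 (adjusted p = 0.00566), a call that held in those fits too. For FOXO3, 1 other probe set was also called lower. After NR4A1 CEAA 3 rose and 4 fell, with a median of 0.03. MYC rose by 0.57, a call that also held throughout. Mean FOXO4 signal was 5.59 in the control arrays, 5.91 after NR4A1 WT and 4.97 after NR4A1 CEAA. The control and NR4A1 CEAA means lay within the range of the markers of other lineages. Both FOXO4 sizes below are therefore differences of measured values and do not fix the fold in RNA. FOXO4 fell by 0.62 (adjusted p = 0.0128), SMAD4 rose by 0.52 (adjusted p = 0.00921) and USP2, a deubiquitinase that stabilizes cyclin D1, by 0.51 (adjusted p = 0.0154), the last pair at the brightest probe set only, and none of these 3 was called without NR4A1 CEAA replicate 1 (0.104, 0.0691 and 0.0956) or replicate 2 (0.0633, 0.0678 and 0.0943). Without either of these arrays 1 gene was called higher and 0 lower, and without GFP replicate 1 or 3, 2 lower. Between NR4A1 WT and NR4A1 CEAA 8 were higher and 3 lower (5 higher without NR4A1 CEAA replicate 1), with MYC at -1.91 and FOXO4, FOXO1 and STAT5A at 0.94, 0.89 and 0.82.

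Of 20 p53 target genes 17 were measured, and 6 rose and 2 fell after NR4A1 WT, with a median of 0.14. Without any 1 of the GFP or NR4A1 WT arrays, 4 or 5 were called higher. ZMAT3 was not called without GFP replicate 1, 2 or 3 (0.0978, 0.0510 and 0.0819) or NR4A1 WT replicate 1 or 2 (0.0745 and 0.0569). Nor was ZMAT3 called without either NR4A1 CEAA array. TP53I3 was not called without GFP replicate 1 or 2 (0.0647 and 0.0601) or NR4A1 WT replicate 2 or 3 (0.0505 and 0.0529). GADD45A, a stress-induced inhibitor of growth, fell by 0.62 (adjusted p = 0.000714), while cyclin G1 (CCNG1) rose by 0.54 (adjusted p = 0.000346) and the repair gene DDB2 and TP53INP1 by 0.52 each (adjusted p = 0.00352 and 0.00245). None of the 2 other probe sets of TP53INP1 was called. Without any 1 array other than NR4A1 WT replicate 3, 1 of the list was called lower in place of 2. After NR4A1 CEAA 2 rose and 1 fell, with a median of 0.11. ZMAT3 rose by 0.83 (adjusted p = 0.00518) at its brightest probe set, with 0 of its 4 other probe sets called. PPM1D rose by 0.29 (adjusted p = 0.0187) and DDB2 fell by 0.34 (adjusted p = 0.0377), and neither was called without NR4A1 CEAA replicate 1 (0.0751 and 0.254) or replicate 2 (0.134 and 0.0632). Nor were they called without GFP replicate 2 (0.0592 and 0.100) or GFP replicate 3 (0.0565 and 0.0660), nor DDB2 without GFP replicate 1 (0.0986). The other PPM1D probe set was not called. Between NR4A1 WT and NR4A1 CEAA 5 were higher and 2 lower (median -0.16), with DDB2 at 0.86, TP53I3 at 0.69, TP53INP1 at 0.50 and GADD45A at -0.63.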

How the data were processed

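Total RNA of the 8 arrays was read on Affymetrix human genome U133 Plus arrays. The authors deposited log2 intensities per probe set, made with Robust Multiarray Analysis (RMA Express), which subtracts background, equalizes the arrays by quantiles and summarizes probes. The program's version is not given in the sources used here. Values ran from 2.29 to 14.97, with array medians of 4.75 to 4.80, and no array was left out. No detection call was used. Differences were taken within a probe set, and levels of different probe sets were used only to choose each gene's brightest.

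Of 54613 probe sets, 41091 had exactly 1 gene symbol, 1801 several and 11721 none, and only the first were used. The 3 groups entered a linear fit (limma 3.58.1, R 4.3.3, lmFit and eBayes, 8.52 degrees of freedom) without covariates. NR4A1 WT and NR4A1 CEAA were each compared with GFP and then with each other, with p adjusted over all probe sets. Rank Product was recomputed with 100 permutations and the scripts were tested on simulated data. The members, gene lists (G1/S machinery, E2F targets, regulators, p53 targets, lineage markers) and rules were chosen with earlier results of these data known. All members were named at every probe set, as were up to 4 genes per list and comparison with the largest difference among those called, and the 3 genes most correlated with each D-type cyclin. FOXO3 was named in addition because it moved against FOXO1. Alternatives were the arrays fitted, variance trend, array weights, dim filter, centering, quantile normalization, probe sets tested, threshold, replicate block, Rank Product and leaving out each array.

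Same-numbered arrays of different groups did not deviate together (correlations of deviations from group means from -0.03 to 0.07), so replicate numbers were not taken as pairs. Promoter windows come from RefSeq on GRCh38.p14, and 8 members had one, which did not include CCND1 or CCND2.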

Additional observations from a re-analysis of the deposited data

How the results depend on the processing

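Over single member probe sets, 1080 of 1197 comparisons with an alternative kept their direction and side of the threshold, 89 lost the call, 15 gained one and 13 changed sign, and 0 of the 13 were called differences. The total also holds uncalled differences, which had no call to lose, and fits without an array of the group not compared. After NR4A1 CEAA, CCND1 208711_s_at (0.00) was -0.0167 after centering and -0.0173 after quantile normalization again, and -0.0594 to 0.0669 without 1 array. The other sign changes were all without 1 array: after NR4A1 WT, CCND3 1562028_at ran from -0.0075 to 0.19, CDK6 231198_at from -0.12 to 0.0069, CDK6 243000_at from -0.15 to 0.0051 and RB1 203132_at from -0.10 to 0.0754, and between NR4A1 WT and NR4A1 CEAA, CCND2 231259_s_at ran from -0.46 to 0.16, CDKN1A from -0.16 to 0.0534 and CDKN2D 213586_at from -0.22 to 0.0704. After NR4A1 WT 5 probe sets were called lower, and with 1 probe set per gene, an adjusted p below 0.01 and Rank Product the counts were 2, 2 and 0. After NR4A1 CEAA 8 were called higher, with counts of 2, 4 and 2 under the same settings. Between NR4A1 WT and NR4A1 CEAA, 12 were lower (4 with 1 probe set per gene and 2 by Rank Product) and 3 higher (1 by Rank Product). Testing 1 probe set per gene leaves 9 members. Rank Product called 0 to 3 genes higher and 0 or 1 lower in any pathway list and comparison. In the G1/S list after NR4A1 CEAA (2 higher, 5 lower), the dim filter gave 7 and 8. That filter changes the adjustment for every probe set, and the share called over all genes under it was not counted. The rise in these counts is therefore not a result about the list. The count of 7 E2F targets lower after NR4A1 CEAA was 4 at an adjusted p below 0.01 and 4 with the replicate block. The cause was not tested.

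Without each array in turn, 2 to 4 member probe sets were called lower after NR4A1 WT, 2 to 8 higher and 1 to 3 lower after NR4A1 CEAA, and 2 to 3 higher and 8 to 14 lower between NR4A1 WT and NR4A1 CEAA. The fewest after NR4A1 WT were without GFP replicate 3 (2), with 3 without GFP replicate 1 or 2, and the fewest after NR4A1 CEAA were without NR4A1 CEAA replicate 1. With the replicate block, 3 were lower after NR4A1 WT. It ended the calls of CDK4 (adjusted p = 0.0555) and CDK6 207143_at (0.0527) after NR4A1 WT, CCND2 200953_s_at (0.0740) and CDK6 224847_at (0.0580) after NR4A1 CEAA, and RB1 211540_s_at (0.0577) between NR4A1 WT and NR4A1 CEAA, and changed no other member call. With an intensity trend or the dim filter, CDK6 224847_at (adjusted p = 0.00101 and 0.0452) and 224848_at (0.000776 and 0.0188) were called lower after NR4A1 WT. The other calls gained, of CCND1, CCND2, CCND3 and CDKN1B, stand with those genes.

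The smallest called member difference was -0.24, for CDK4 after NR4A1 WT. Dim probe sets, both of CCND1 among them, are not shown to be above background.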

Other observations

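CCND2 is one of many genes whose probe sets were called in opposite directions after NR4A1 CEAA. Among genes with at least 2 called probe sets, 18 of 1096 (1.64%) were called both ways after NR4A1 WT, 181 of 1088 (16.6%) after NR4A1 CEAA, and 485 of 2297 (21.1%) between NR4A1 WT and NR4A1 CEAA. The 2 comparisons with GFP share their control arrays, and the difference between their shares was not tested.

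RB1 has 1 RefSeq window, chr13:48476200-48476449, which lies at a start inside the gene's annotated span and holds 1 match to AAGGTCA, 159 bases upstream of that start. That motif was in 3.44% of the windows searched.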
